A study of Homo sapiens with 4 samples.

Results

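The SLC2A genes encode the GLUT family of membrane carriers, which move glucose, fructose and related molecules across membranes by facilitated diffusion. The 10 genes described here are SLC2A1, SLC2A2, SLC2A3, SLC2A4, SLC2A6, SLC2A8, SLC2A9, SLC2A10, SLC2A12 and SLC2A13, out of 14 SLC2A genes found in the RefSeq table and 19821 protein-coding genes placed on chromosomes 1 to 22 and X. They are a named list, chosen by gene family when gene-end peaks and summit heights of these same libraries were already known, so their peaks at the ends, inside and within 50 kb are given as a description with no test. The samples were HepG2 cells, an established human liver cancer line, assayed by CUT&Tag with an antibody against γH2AX, the phosphorylated histone variant that marks chromatin around DNA double-strand breaks. In CUT&Tag a transposase is brought to the antibody and cuts and tags the DNA beside it. One group was labelled mock-induced (DMSO in its title) and the other lipid overload-induced (PAOA in its title), with 1 library each from 100000 cells, and each had an IgG counterpart that was not analysed here. Both groups grew in the same medium with fetal bovine serum, and the labels state neither a dose nor a time of exposure. With 1 library per condition no difference between conditions has a replicate check, and each interval below is an exact 95% interval. Intervals of fragments and of ratios cover counting error only. Those of shares treat the genes as independent draws, which a chosen list is not, so they are a guide and no test.

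In liver cells, SLC2A2 (GLUT2) is the main carrier of hepatocytes and passes glucose in both directions at low affinity, while SLC2A1 (GLUT1) is a basal glucose carrier of most dividing cells and is often raised in tumours. Other members sit in inner membranes (SLC2A6, SLC2A8), respond to insulin in muscle and fat (SLC2A4), or carry urate (SLC2A9) or myo-inositol (SLC2A13). A γH2AX peak is a measure of chromatin and says nothing of how much of a carrier's RNA or protein is present.

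Summit height is given as the number of fragments over the summit, worked out from the authors' fold enrichment and p-value. The mock list had 8542 peaks with a median of 5 fragments and a median width of 180 bp, and the lipid-overload list 27296 peaks with 9 fragments and 196 bp. By an estimate from the solved backgrounds, the lipid-overload library held 2.62 times the fragments of the mock library. Its background coverage per base was put at 2.39 times as high. Both values assume that each background came from the γH2AX library and not from IgG, which the sources used here do not state. Numbers scaled to the mock depth rest on the same assumption. The smallest listed summit had 3 fragments in mock and 4 in lipid overload. A gene without a mock peak may thus carry fragments below that limit. None of 8 hepatocyte marker genes, ALB and HNF4A among them, had a peak at a gene end in either list (0 to 36.9%). Of all protein-coding genes 13.4% had one in mock, which lies inside that interval, and 43.4% in lipid overload, which lies above it. A γH2AX peak does not measure RNA, so the cell type cannot be checked in this way.

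Of the members, 3 of 10 (30%, 6.67 to 65.2) had a peak within 1 kb of a gene end in mock, against 13.4% of all protein-coding genes, and 6 of 10 (60%, 26.2 to 87.8) in lipid overload, against 43.4%. Both intervals take in the share of all genes. Both lists marked an end of SLC2A1, SLC2A6 and SLC2A8 (3 of 10, against 12.1% of all genes). SLC2A4, SLC2A12 and SLC2A13 had one in lipid overload only (3 of 10, against 31.4%), and 0 of 10 had one in mock only (1.34%). SLC2A2, SLC2A3, SLC2A9 and SLC2A10 had none at an end in either list. With peaks inside the genes added, 5 of 10 were marked in mock (24.2% of all genes) and 8 of 10 in lipid overload (58.0%). Within 50 kb the counts were 7 (52.0%) and 9 (80.0%). RefSeq promoter sequence, which gives the start and strand of a gene, was found for 8 members and not for SLC2A3 and SLC2A4.

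The promoters of the 4 members with a peak in the promoter window, and that of SLC2A2 as the unmarked hepatocyte carrier, are printed so that the sequence under the peaks can be read. They are from RefSeq (GRCh38.p14), 5′ to 3′ on the gene's own strand, with 250 bases before the start and 50 after it. Capitals mark matches on either strand to the GC box (GGGCGG), the CCAAT box (CCAAT), the E-box (CACGTG) and the TATA box (TATAAA). The ETS core (CCGGAA), the NRF1 core, the AP-1 site (TGANTCA) and the CRE (TGACGTCA) were also searched and had no match in these 5 windows. Matches to different motifs did not overlap, but a GC box and a CCAAT box of SLC2A8 adjoin and read as 1 run of capitals. SLC2A8 is at chr9:127396919-127397218 (plus strand), SLC2A1 at chr1:42958819-42959118, SLC2A6 at chr9:133479050-133479349, SLC2A13 at chr12:40106032-40106331 and SLC2A2 at chr3:171026671-171026970 (all minus).
SLC2A8: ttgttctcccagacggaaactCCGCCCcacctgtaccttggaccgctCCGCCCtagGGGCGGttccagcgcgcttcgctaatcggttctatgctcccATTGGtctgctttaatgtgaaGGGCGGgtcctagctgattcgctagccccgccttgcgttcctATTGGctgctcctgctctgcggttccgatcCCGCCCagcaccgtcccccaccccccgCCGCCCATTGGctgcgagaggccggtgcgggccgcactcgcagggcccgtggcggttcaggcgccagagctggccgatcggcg
SLC2A1: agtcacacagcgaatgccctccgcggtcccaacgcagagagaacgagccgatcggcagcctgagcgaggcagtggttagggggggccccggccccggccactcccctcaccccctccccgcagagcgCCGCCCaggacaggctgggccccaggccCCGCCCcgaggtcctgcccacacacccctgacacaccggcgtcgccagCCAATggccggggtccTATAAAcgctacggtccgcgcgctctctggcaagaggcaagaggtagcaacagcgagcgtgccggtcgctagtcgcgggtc
SLC2A6: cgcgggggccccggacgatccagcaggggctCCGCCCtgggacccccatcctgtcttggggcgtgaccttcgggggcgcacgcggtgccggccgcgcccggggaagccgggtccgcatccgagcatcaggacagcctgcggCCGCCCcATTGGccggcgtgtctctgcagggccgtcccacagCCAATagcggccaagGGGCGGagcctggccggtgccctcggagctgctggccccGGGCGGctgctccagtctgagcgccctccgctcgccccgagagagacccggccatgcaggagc
SLC2A13: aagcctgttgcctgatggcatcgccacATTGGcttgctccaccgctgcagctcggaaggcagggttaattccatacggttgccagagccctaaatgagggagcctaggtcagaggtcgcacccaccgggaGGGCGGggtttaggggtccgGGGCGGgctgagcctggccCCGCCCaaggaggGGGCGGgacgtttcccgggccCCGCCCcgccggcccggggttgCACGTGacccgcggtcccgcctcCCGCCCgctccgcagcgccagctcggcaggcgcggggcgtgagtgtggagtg
SLC2A2: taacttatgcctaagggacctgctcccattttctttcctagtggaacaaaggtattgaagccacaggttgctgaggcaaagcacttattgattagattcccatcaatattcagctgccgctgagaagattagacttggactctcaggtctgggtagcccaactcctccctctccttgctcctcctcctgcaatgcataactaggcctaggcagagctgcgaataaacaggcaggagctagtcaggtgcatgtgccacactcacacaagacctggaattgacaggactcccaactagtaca

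The 4 marked promoters were rich in CpG and the SLC2A2 promoter was poor in it. CpG dinucleotides numbered 30 in SLC2A8, 30 in SLC2A1, 33 in SLC2A6 and 29 in SLC2A13, against 2 in SLC2A2 and a median of 21 over 22132 promoters of protein-coding genes. A rich promoter was not always marked: SLC2A10, with 31 CpG, had no peak over it in either list. The promoters of SLC2A12 (5 CpG) and of the 2 tabulated starts of SLC2A9 (3 each) were poor and had none. Over all genes, 46.8% of promoters with an observed to expected CpG ratio of at least 0.6 overlapped a lipid-overload peak, against 6.31% of the others. In mock the shares were 12.9% and 1.72%. GC boxes numbered 6 in SLC2A8 and in SLC2A13, 4 in SLC2A6 and 2 in SLC2A1. Among the unmarked promoters SLC2A10 had 3 and the second SLC2A9 start had 1. Those of SLC2A2, SLC2A12 and the first SLC2A9 start had none. At least 1 GC box is found in 56.3% of all promoters and at least 6 in 3.81%. SLC2A8 had 3 CCAAT boxes, SLC2A6 had 2 and SLC2A1 and SLC2A13 had 1 each, while 34.6% of all promoters have 1 or more and 3.61% have at least 3. The E-box of SLC2A13 is shared with 8.34% of promoters and the TATA box of SLC2A1 with 9.46%. A match describes the letters and does not show that a factor binds there.

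**Figure D1:**
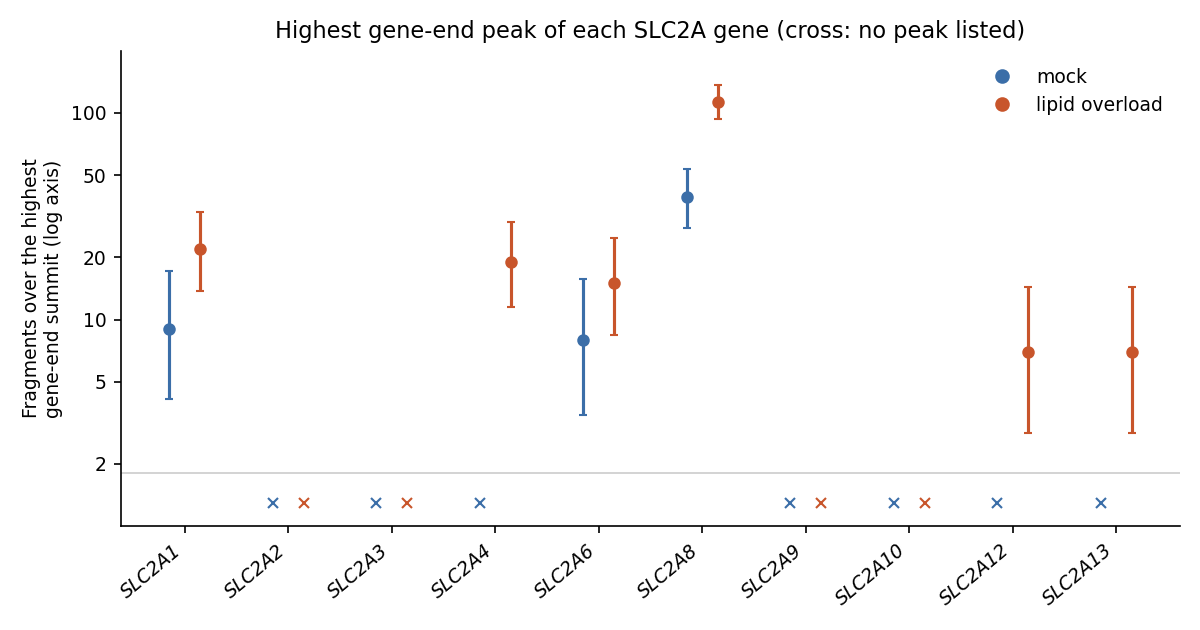
Fragments over the highest gene-end summit of each member (vertical log axis) in mock (blue) and lipid overload (orange), 1 library each, with exact 95% Poisson intervals; a cross means that no peak was listed. SLC2A8 stands highest in both lists, at 39 and 113 fragments, and SLC2A2, SLC2A3, SLC2A9 and SLC2A10 have crosses in both.

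SLC2A8 (GLUT8), a carrier held mostly in inner membranes, had by far the tallest peak of the 10 genes. Over the start of the gene the mock library had 39 fragments (27.7 to 53.3) in a peak 459 bp wide at chr9:127396747-127397205. The lipid-overload library had 113 (93.1 to 136) in a peak 724 bp wide at chr9:127396549-127397272, which covers all of the mock peak. Both summits lay on the same base, 215 bp upstream of the start. In the printed promoter this is base 36, between the GC boxes at bases 22 to 27 and 48 to 53. A shared summit base was found in 121 of 3937 overlapping peak pairs (3.07%), so that it is uncommon in these lists. Of the 206 pairs with 20 or more mock fragments, 10 (4.85%) shared it and 43.7% had summits within 10 bp of each other.

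By −log10 q the SLC2A8 peak ranked 53 in mock and 27 in lipid overload, and only 2 of the genes with a gene-end peak had more fragments in each list. The ratio of lipid overload to mock was 2.90 (2.00 to 4.28). The interval takes in both the estimated 2.62 of the libraries' fragments and the 2.39 of their background. The genes nearest to SLC2A8 in their highest gene-end summits, by summed absolute log2 difference over the 2 libraries, were FBXO31 and MAP1LC3B, which share 1 peak of 36 and 100 fragments (0.29), TAF11L3 with 39 and 72 (0.65) and ELL with 61 and 116 (0.68).

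SLC2A8 also had peaks inside the gene. A mock peak of 6 fragments (2.20 to 13.1) and a lipid-overload peak of 14 (7.65 to 23.5) overlapped 6.9 kb downstream of the start, with summits 3 bp apart. Their widths were 192 and 251 bp, and the ratio was 2.33 (0.842 to 7.41). A second lipid-overload peak of 12 fragments, 142 bp wide, lay just upstream of it without a mock counterpart. These peaks are at chr9:127404040-127404231 in mock and chr9:127403927-127404177 and chr9:127403333-127403474 in lipid overload.

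SLC2A6 (GLUT6), a carrier of lysosomal membranes, lies on the same chromosome arm as SLC2A8 and was marked at its start in both lists with far fewer fragments. Mock had 8 (3.45 to 15.8) in a peak of 152 bp at chr9:133479065-133479216, and lipid overload 15 (8.40 to 24.7) in a narrower one of 131 bp at chr9:133479096-133479226. The summits stood 26 bp and 79 bp upstream of the start, 53 bp apart. The ratio of 1.88 (0.746 to 5.11) was below the ratio of the libraries, but its interval takes that in. The local background of this pair was 3.59 times as high in lipid overload as in mock, so the authors' fold was slightly lower there (5.15 against 5.67).

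SLC2A1 (GLUT1) was marked close to its start in both lists and at more places in lipid overload. Close to the start, mock had 9 fragments (4.12 to 17.1) in a peak of 154 bp at chr1:42958976-42959129 and lipid overload 22 (13.8 to 33.3) in one of 442 bp at chr1:42958748-42959189. The summits were on the same base, 115 bp upstream of the start, in the gap between SLC2A1 and its divergent noncoding transcript SLC2A1-DT, whose end both peaks also reach. The ratio was 2.44 (1.08 to 6.03), close to that of the libraries. Inside the gene, lipid overload had a peak of 14 fragments, 452 bp wide, at chr1:42936351-42936802 and one of 12, 155 bp wide, at chr1:42943344-42943498. A further peak of 12 fragments (6.20 to 21.0), 200 bp wide, lay beyond the other end at chr1:42924195-42924394. Its edge was 959 bp from that end, the farthest of any peak counted at a gene end, and the nearest one left out was 1569 bp from the end of SLC2A6 (17 fragments). The 3 peaks without a mock counterpart would have 4.57 to 5.33 fragments at the mock depth, where 5 or 6 were needed for listing at the scaled local background.

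**Figure D2:**
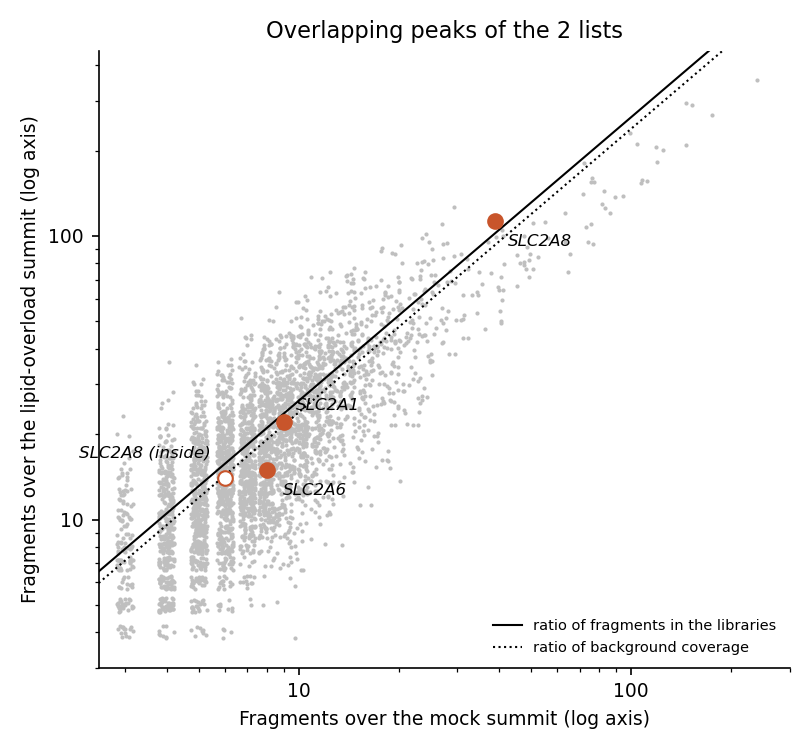
Fragments over the mock summit (horizontal) and the lipid-overload summit (vertical) for the 3937 overlapping peak pairs (grey, spread slightly so that equal values can be seen; both axes log), with member pairs at gene ends (filled) and inside (open). The lines mark the estimated ratio of fragments in the libraries (2.62, solid) and of background coverage (2.39, dotted). SLC2A8 lies just above them at 39 and 113, and SLC2A6 below.

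Among all overlapping pairs the median ratio was 2.22 (quartiles 1.63 and 3.0), and among the 206 with 20 or more mock fragments 1.88 (1.5 and 2.49). SLC2A8 at its start stood above 72.0% of all pairs, SLC2A1 above 58.1% and SLC2A6 above 35.4%. SLC2A8, with 39 mock fragments, also stood above 86.4% of the 206. Its interval (2.00 to 4.28) takes in the median of all pairs but lies above the median of the 206. Pairs enter either set only if listed in both libraries. Listing in mock favours sites where the mock number was high, and listing in lipid overload those where that number was high. The part of this selection in the medians was not tested.

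Of the other classical glucose carriers, only SLC2A4 had a gene-end peak. SLC2A4 (GLUT4), the insulin-responsive carrier of muscle and fat, had 19 fragments (11.4 to 29.7) in lipid overload in a peak of 320 bp at chr17:7281353-7281672, with the summit 87 bp outside the gene. No mock peak overlapped it. At the mock depth these 19 would be 7.24 (4.36 to 11.3), and 6 were needed for listing at the scaled local background. SLC2A4 is the one member marked only in lipid overload whose scaled number passes this limit, though its interval reaches below it.

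SLC2A2 (GLUT2), the hepatocyte carrier, had no peak at its ends or inside in either list. Within 50 kb it had 1 mock peak of 3 fragments (138 bp wide) 19.8 kb away and 1 lipid-overload peak of 5 (189 bp) 43.0 kb away, the latter over the pseudogene KLF7P1. SLC2A3 (GLUT3), a high-affinity carrier best known in neurons, had 1 mock peak of 4 fragments (1.09 to 10.2), 179 bp wide, inside the gene at chr12:7933391-7933569. It had no lipid-overload peak within 50 kb, and the nearest one outside that limit, of 13 fragments, was 50.7 kb away. SLC2A3 is nearly identical in parts to its neighbour SLC2A14, so its values are uncertain: the sources used here do not say how reads that fit both were handled.

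The remaining members had low peaks, all with 9 fragments or fewer in the gene or at its ends. SLC2A13, which encodes a proton-coupled myo-inositol carrier, had 2 lipid-overload peaks around its start, of 7 fragments each (2.81 to 14.4). One, 133 bp wide at chr12:40106098-40106230, had its summit 86 bp upstream, and the other, 315 bp wide at chr12:40105381-40105695, 463 bp downstream. Its only mock peak, of 3 fragments, was 187 kb downstream of the start, inside the gene, and had no counterpart. SLC2A12 (GLUT12), a glucose carrier of insulin-sensitive tissues, had 7 fragments (2.81 to 14.4) in lipid overload, 365 bp downstream of its start, in a peak of 175 bp at chr6:134052252-134052426. At the mock depth 7 fragments would be 2.67, below the 3 needed for SLC2A12 and the 4 for SLC2A13.

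SLC2A9, the urate carrier, is 269 kb long and had 2 lipid-overload peaks inside it and none in mock. One of 6 fragments (2.20 to 13.1), 185 bp wide at chr4:10021015-10021199, lay 451 bp downstream of the second tabulated start, which is 18773 bp inside the gene. The other, of 9 fragments and 226 bp, lay at chr4:10019060-10019285. SLC2A10 (GLUT10), known for its loss in arterial tortuosity syndrome, had 1 lipid-overload peak inside it, of only 7 fragments but 558 bp wide, at chr20:46725681-46726238. That width is above the upper quartile of 284 bp of the whole list. Its tabulated start is 1329 bp inside the gene and had no peak.

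**Figure D3:**
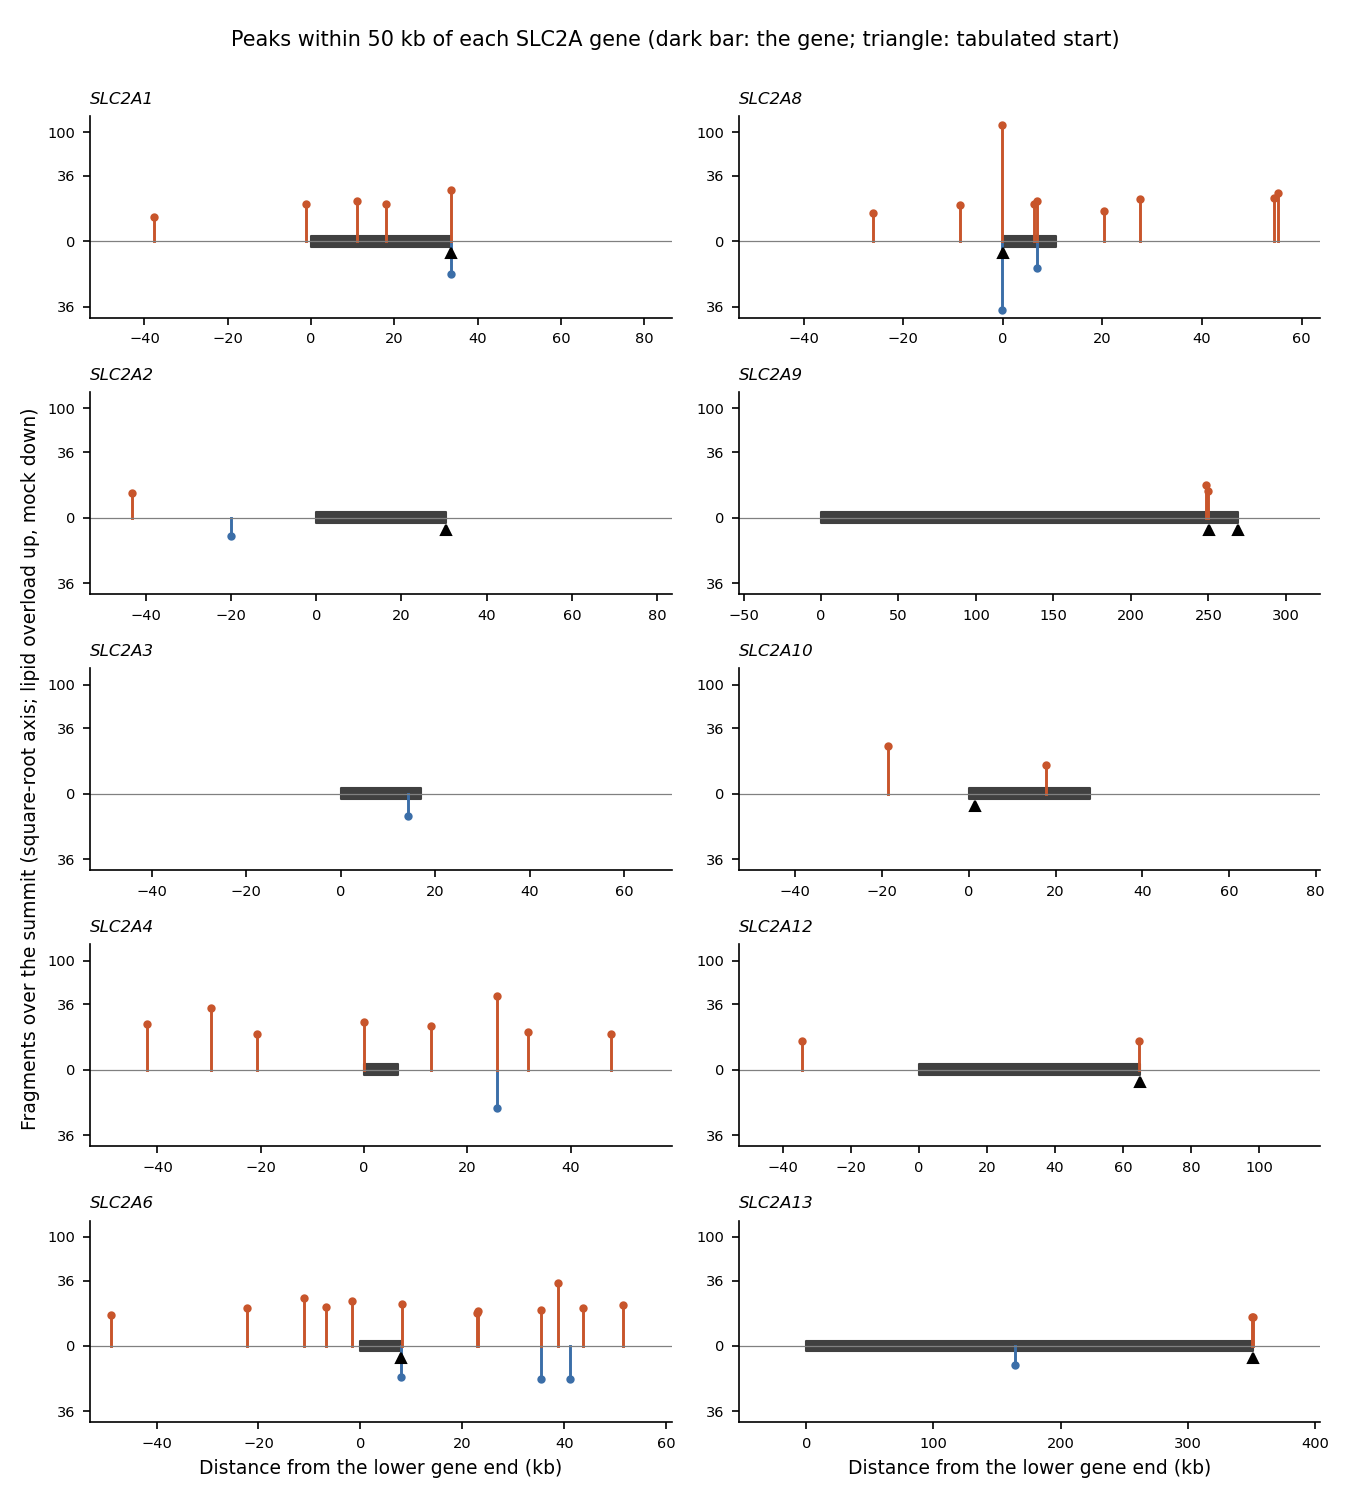
Peaks within 50 kb of each member, by distance of the summit from the gene's lower end in kb (horizontal) and fragments over the summit (vertical, square-root axis), with lipid overload upwards in orange and mock downwards in blue; the dark bar is the gene and the triangle a tabulated start. Peaks are many around SLC2A4, SLC2A6 and SLC2A8 and few around SLC2A2, SLC2A3, SLC2A9, SLC2A10, SLC2A12 and SLC2A13.

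Most peaks in the 50 kb windows lay outside the members. Lipid overload had 43 peaks in these windows, of which 8 were at a member's end, 7 inside and 28 in the flanks, and mock had 10, in numbers of 3, 3 and 4. Of the 28 flanking lipid-overload peaks, 16 lay at the end of another annotated gene, which was protein-coding for 13. Over the whole lipid-overload list, 8463 of 27296 peaks lay at the end of a protein-coding gene. The window of SLC2A4, with 11 other coding genes, held 8 lipid-overload peaks. The tallest, with 46 fragments (33.7 to 61.4) at EIF5A, a translation factor gene, stood above the 19 of SLC2A4 itself, and EIF5A was also marked in mock with 12. Others lay at CTDNEP1 and ELP5 (32), at PHF23 and GABARAP (18), at YBX2 (16), at GPS2 (12) and at NEURL4 (11).

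SLC2A6 had 12 lipid-overload peaks in its window and SLC2A8 had 9. The tallest near SLC2A6 had 33 fragments (22.7 to 46.3), 275 bp wide at chr9:133509745-133510019, and reached no annotated gene. It was taller than the 15 fragments at SLC2A6 itself. Near SLC2A8 the flanking peaks had 7 to 20 fragments, among them those at ZNF79 (15) and inside LRSAM1 near its end and that of RPL12 (16 and 20), so that the 113 at its start stood alone. The tallest near SLC2A10 had 19 fragments, 535 bp wide, at TP53RK and its divergent transcript. Within 500 kb of the gene, SLC2A8 had 20 mock and 64 lipid-overload peaks and SLC2A6 had 15 and 54, against medians of 4 and 16 over all protein-coding genes. SLC2A2 had 1 and 6, SLC2A3 3 and 6, SLC2A9 0 and 4, SLC2A12 0 and 5 and SLC2A13 4 and 3. The 3 members marked in both lists lay in surroundings above both medians (SLC2A1 had 12 and 26), as did SLC2A4 with 14 and 36, while SLC2A12 and SLC2A13 were marked in surroundings at or below them. SLC2A10, with 6 and 12, was above the median in mock and below it in lipid overload and had no gene-end peak. The part of the surroundings in the peaks was not tested.

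**Figure D4:**
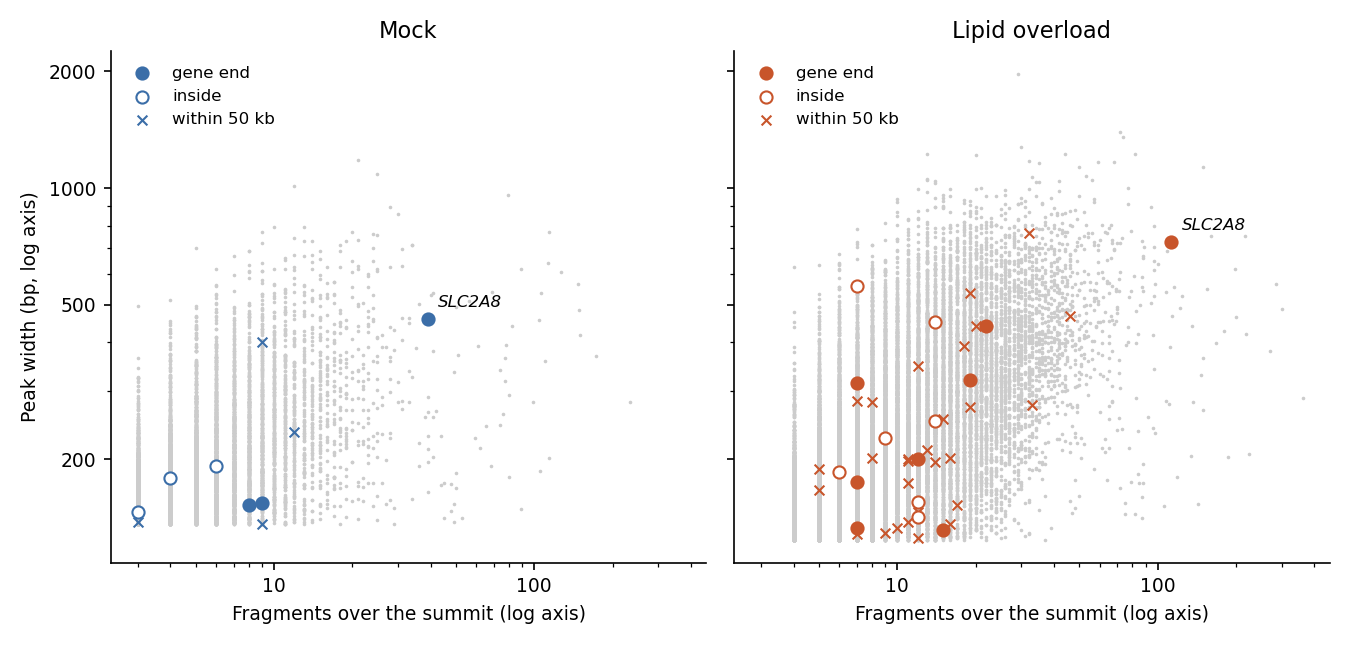
Peak width in bp (vertical) against fragments over the summit (horizontal), both log axes, for all peaks of each list (grey) and for the members' peaks at gene ends (filled), inside (open) and in the flanks (crosses). SLC2A8 lies at the upper right in both lists, and the mock peaks of SLC2A1 and SLC2A6 are among the narrow ones at 154 and 152 bp.

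The members' peaks differed in width as well as in height, and SLC2A8 had the widest gene-end peak in both lists. At gene ends the lipid-overload widths ran from 131 to 724 bp with a median of 257.5, beside 261 bp for all gene-end peaks in that list, and their median height was 13.5 fragments beside 12. The mock widths at SLC2A1 and SLC2A6 were below the lower quartile of 170 bp of gene-end peaks in mock. From mock to lipid overload the peak at SLC2A1 went from 154 to 442 bp and that at SLC2A8 from 459 to 724 bp. That at SLC2A6 went from 152 to 131 bp. Gene-end peaks as a whole were also narrower in the mock list, where their median width was 211 bp, beside the 261 given above. The lipid-overload library was estimated to hold 2.62 times the fragments, and the part of this depth in the widths was not tested. The highest gene-end summit of SLC2A1 in lipid overload had more fragments than 82.5% of the 8611 genes marked there, that of SLC2A4 more than 75.2%, that of SLC2A6 more than 59.7% and those of SLC2A12 and SLC2A13 more than 10.8%.

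Other genes of sugar handling were counted in lists chosen with earlier results known. Of the 4 remaining SLC2A genes, lipid overload marked 2 at an end (50%, 6.76 to 93.2, against 43.4% of all genes) and mock 0 (0 to 60.2%, against 13.4%). SLC2A11 had 12 fragments (6.20 to 21.0) at the third of its tabulated starts, whose promoter holds 3 NRF1 cores, and SLC2A7 had 7 (2.81 to 14.4). SLC2A5, the fructose carrier, had only a peak of 7 inside the gene in lipid overload, and SLC2A14 had none. Of 15 other sugar carriers, mock marked 2 at an end (13.3%, 1.66 to 40.5, against 13.4% of all genes) and lipid overload 9 (60%, 32.3 to 83.7, against 43.4%), so both intervals take in the share of all genes. The median highest summit of the 9 was 9 fragments, beside 12 over all marked genes. The Golgi and plasma membrane carrier gene SLC50A1 had 10 and 27 fragments and the myo-inositol carrier gene SLC5A3 had 6 and 15, while SLC45A4 had 14 in lipid overload only. The sodium-coupled glucose carriers SLC5A1 and SLC5A2 of gut and kidney had none.

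Of 11 sugar kinases and phosphatases, which trap sugars in the cell or release them, mock marked 1 at an end (9.09%, 0.230 to 41.3). Lipid overload marked 3 (27.3%, 6.02 to 61.0), with a median of 8 fragments. The intervals take in the 13.4% and 43.4% of all genes. KHK, the fructose kinase, had 22 fragments (13.8 to 33.3), and HK2 and GALK1 had 8 each, in lipid overload only. The mock peak was at G6PC3, with 5 fragments. G6PC1, the glucose-6-phosphatase of liver, had none at its ends.

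Of 15 genes that regulate the carriers or their traffic, mock marked 6 at an end (40%, 16.3 to 67.7, against 13.4% of all genes). Lipid overload marked 13 (86.7%, 59.5 to 98.3, against 43.4%). Both intervals lie above the share of all genes, but the list was chosen with earlier results known, and no test was made. The median highest summit of the 13 was 16 fragments. RAB8A and RAB10, small GTPases of vesicle traffic that take part in bringing GLUT4 to the surface, had 11 and 44 and 14 and 41 fragments. GIPC1, an adaptor that binds GLUT1, had 37 (26.1 to 51.0) in lipid overload only. TXNIP and ARRDC4, arrestin-like proteins that lower glucose uptake, had 21 in lipid overload only and 9 and 22. Their regulators MLXIPL (11) and MLXIP (16) were marked in lipid overload only and MLX in both (6 and 11), while TBC1D1 and TRARG1 had no gene-end peak in either list.

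**Figure D5:**
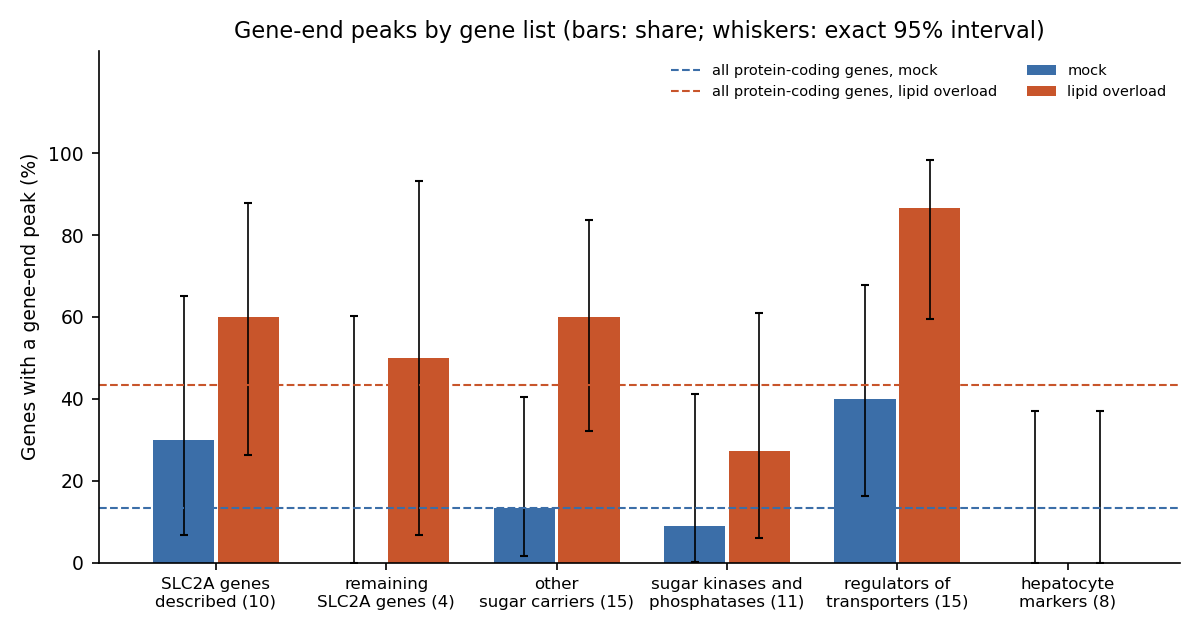
Share of genes with a gene-end peak (vertical, percent) in each list of sugar-handling genes and in hepatocyte markers, in mock (blue) and lipid overload (orange), with exact 95% binomial intervals as whiskers and the share over all protein-coding genes as dashed lines (13.4% and 43.4%). Regulators of transporters, a list chosen with earlier results known, have the highest shares, at 40% and 86.7%, and hepatocyte markers have 0 of 8 in both.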

How the data were processed

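γH2AX CUT&Tag was measured in 4 samples of 4 groups (title labels), and the peak lists of the 2 γH2AX samples were used, with IgG not analysed here. The tools were BWA, MACS2 2.1.2, deepTools and FastQC with hg38, per the submitters' processing notes. Not given in the sources used here: their settings, read filters and whether IgG served as control. Libraries were amplified with 14 PCR cycles, per the labels' protocols, and PCR copies are not independent molecules. The deposited lists, 1 per sample, give a score, a fold enrichment (a linear ratio), −log10 p, −log10 q and a summit offset. These are the authors' own values, used to describe and rank peaks within a list.

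Fragment numbers and local background were solved from the deposited fold and −log10 p under the MACS2 formulas (fold is fragments plus 1 over background plus 1, p the Poisson tail above the number). A whole number fitted 100% of peaks within 0.0001 in log10 p, and on 2000 simulated peaks per list the known number came back for 100%. The lowest background (0.121 in mock, 0.289 in lipid overload), divided by the step of the local backgrounds (0.00684 and 0.00622), gave the relative depth. That depth is an estimate, which assumes that the backgrounds were drawn from the γH2AX libraries themselves and not from IgG. The number of fragments needed for listing is the smallest that reaches the lowest −log10 p of the mock list (4.27) at the lipid-overload background divided by 2.39.

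Genes came from RefSeq (GRCh38.p14, the coordinates of hg38); 679 table rows out of position order by over 1 Mb, 153 of them protein-coding, were set aside. A gene end is 1 kb either side of either end of the gene, and overlap is at least 1 bp. Intervals are exact Poisson for fragments, exact Clopper-Pearson for shares and, conditional on the sum, for ratios. No test was made, since each group has 1 sample. Genes named are the members, the other SLC2A genes, genes with an end at a described peak, the 3 tallest of each list, and the 4 nearest to SLC2A8. Further list members (SLC5A1, SLC5A2, G6PC1, G6PC3, SLC2A5, TXNIP, ARRDC4, MLXIPL, MLXIP, MLX, TBC1D1, TRARG1, ALB and HNF4A) were named after their values were seen. The members and lists were chosen with earlier results of these data known. Python 3.11.15, numpy 2.4.6, pandas 2.3.3, scipy 1.17.1 and matplotlib 3.10.9 were used.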

Additional observations from a re-analysis of the deposited data

How the results depend on the processing

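Of 42 alternative values, 32 stayed within 1.5 times the reported count or inside the interval of the reported ratio, and 10 moved further. A count can stay within this limit while the members behind it change. With peaks of −log10 q of at least 5, the members with a gene-end peak fell from 3 to 1 in mock and from 3 to 1 in both lists, leaving SLC2A8. Those marked in lipid overload only were then SLC2A1, SLC2A4, SLC2A6 and SLC2A12, in place of SLC2A4, SLC2A12 and SLC2A13. Members with a peak inside or at the ends then numbered 1 in mock and 5 in lipid overload, and those with one within 50 kb 2 in mock. With a fold of at least 5, members with a peak inside or at the ends in mock numbered 3. With the lipid-overload list cut to the length of the mock list, lipid overload marked an end of 3 members, 1 of them (SLC2A4) without a mock peak, 3 had a peak inside or at the ends and 5 had one within 50 kb. The cause was not tested. Shares of all genes were worked out at the main settings only, so none of the alternative counts can be set against all genes. Counted only at tabulated starts, 6 members were marked in lipid overload, with SLC2A9 in place of SLC2A4. SLC2A3 and SLC2A4 have no tabulated start and so could not be counted there. The ratio at SLC2A8 over the relative depth was 1.10, and 1.21 to 1.36 under the other scalings, of which the one by background coverage was chosen after seeing the data. The scaling by overlapping pairs used the median of all pairs (2.22) and not the lower one of pairs with 20 or more mock fragments (1.88). No paired analysis was possible because each group has 1 sample. Many member peaks rest on fewer than 10 fragments, and a gene without a peak is not shown to lack γH2AX.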
